A study of Mus musculus with 6 samples.

Results

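To describe how the sterol-regulated programme of muscle stem cells (MuSCs) stood in dystrophic muscle and after an additional Sirt6 mutation, the RNA-seq values of 8 genes were examined. These were Srebf1, Srebf2, Insig1, Hmgcs1, Idi1, Fdft1, Sqle and Lss, chosen by gene symbol from the 22706 genes of the table, and all 8 were found and passed the filter on low values. Values came from 6 libraries of MuSCs sorted by flow cytometry from mouse muscle, 2 for each of 3 groups. The methods name sorting by surface markers or by a fluorescent reporter, without saying which served each group. Control mice were wild type. In mdx mice the dystrophin gene is mutated, which makes them a model of Duchenne muscular dystrophy. Sirt6mKO/mdx mice are mdx mice in which a floxed Sirt6 gene, which encodes a histone deacetylase, is removed by a constitutively active Cre recombinase driven from the Pax7 locus, so the gene is lost along the whole muscle lineage and not in adult MuSCs alone. All groups are labelled as C57BL/6 and the labels name no agent. Age and pooling of animals are not given in the labels. The methods call the pairs biological replicates. The p-values rest on the spread within these pairs, pooled over the 3 groups. They rest more on the spread of other genes of similar level, which the fit borrows (12.06 prior degrees of freedom).

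Srebf1 and Srebf2 encode the transcription factors SREBP-1 and SREBP-2, which are made as precursors held in the membrane of the endoplasmic reticulum. When membrane cholesterol is low, the escort protein SCAP carries the precursors to the Golgi, where proteases release the active factor, and when it is high, INSIG proteins retain the complex. SREBP-2 mainly drives genes of cholesterol synthesis and uptake and SREBP-1c mainly those of fatty acid synthesis, and INSIG1 is itself a target, which closes a feedback loop. The 5 enzymes follow the pathway in order: HMGCS1 makes HMG-CoA, IDI1 converts one activated isoprene unit into its isomer, FDFT1 joins farnesyl units into squalene, SQLE oxidizes squalene, and LSS closes the ring to lanosterol. As these are mRNA values, they do not measure cleavage of the precursors, enzyme activity or sterol content.

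Some features of the libraries bear on these genes. The approximate depth ranged from 4397300 to 9743622 reads, and the 10 most abundant genes took 11.7% to 32.6% of a library, most in the libraries labelled Sirt6mKO/mdx. Sirt6 itself was read at a normalized 41 and 32 in the control pair, 33 and 40 in the mdx pair, and 37 and 30 in the pair labelled Sirt6mKO/mdx. A whole-gene count cannot resolve the deleted exons, and it did not set the Sirt6mKO/mdx group apart, which is therefore named by its label. Dmd was also at similar levels in all groups (2038 to 2883 normalized reads). The control libraries held Xist at 16772 and 12950, against 7 to 34 in the other 4 libraries, while the Y-linked genes Ddx3y, Eif2s3y, Uty and Kdm5d were at 0 to 13 there and 207 to 1767 elsewhere. Sex and genotype therefore cannot be told apart in any comparison with control, whereas all mdx and Sirt6mKO/mdx libraries held Y-linked RNA and little Xist. The labels used here give no sex. The legends of the study that show the RNA-seq of MuSCs in these groups name male mice, which the values of the control libraries go against. MuSC markers were present (9 of 9 in the table, summed 21231 to 29029 normalized reads in each library), and fibro-adipogenic markers (7 of 7) were also high, at a summed 12811 and 12983 for control, 15308 and 8897 for mdx and 11263 and 9520 for Sirt6mKO/mdx. Of these 7, Col1a1 and Ly6a, which encodes Sca1, rose in mdx (6.89% of all genes), and Col1a1 fell in Sirt6mKO/mdx relative to mdx (2.54%). According to the methods, cells bearing Sca1, CD45 or CD31 were depleted before the sort, a step meant to remove fibro-adipogenic cells, leukocytes and endothelial cells. In bulk samples such as these, fewer cells of a type and less RNA per cell cannot be told apart.

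The sequence ahead of the transcription start is where SREBPs, together with NF-Y and Sp1, bind their target genes. RefSeq promoter windows of GRCm38.p6 were found for 6 of the 8 genes, and 4 are shown: those of the 3 genes called lower in Sirt6mKO/mdx than in mdx, and Insig1, a target with a different pattern. Each is the part of the 250 bases upstream of a RefSeq start that lies ahead of the annotated gene, read 5′ to 3′ on the gene's strand. Capitals mark a sterol regulatory element core (CACNCCAC) or a CCAAT box, the recognition letters of NF-Y, on either strand.
Hmgcs1 (chr13:119690101-119690350, plus strand): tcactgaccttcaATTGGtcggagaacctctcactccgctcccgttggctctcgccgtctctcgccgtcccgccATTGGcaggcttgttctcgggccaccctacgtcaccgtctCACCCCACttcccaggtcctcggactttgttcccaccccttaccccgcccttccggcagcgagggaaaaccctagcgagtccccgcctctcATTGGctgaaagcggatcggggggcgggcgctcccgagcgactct
Lss (chr10:76531355-76531587, plus strand): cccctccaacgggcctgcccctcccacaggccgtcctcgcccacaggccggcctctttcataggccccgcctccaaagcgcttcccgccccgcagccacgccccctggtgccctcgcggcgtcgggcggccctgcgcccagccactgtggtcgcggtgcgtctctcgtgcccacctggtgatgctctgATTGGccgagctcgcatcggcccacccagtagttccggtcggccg
Srebf1 (chr11:60222582-60222831, minus strand): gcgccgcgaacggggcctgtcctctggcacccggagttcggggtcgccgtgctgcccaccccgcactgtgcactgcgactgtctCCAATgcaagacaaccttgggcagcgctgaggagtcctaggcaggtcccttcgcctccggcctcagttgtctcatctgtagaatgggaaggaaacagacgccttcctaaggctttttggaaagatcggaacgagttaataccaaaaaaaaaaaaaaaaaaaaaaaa
Insig1 (chr5:28071162-28071362, plus strand): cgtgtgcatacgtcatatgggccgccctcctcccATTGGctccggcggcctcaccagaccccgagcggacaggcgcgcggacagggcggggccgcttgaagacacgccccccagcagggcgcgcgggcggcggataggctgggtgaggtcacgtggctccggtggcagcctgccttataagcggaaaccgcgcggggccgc

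Hmgcs1 carried 3 CCAAT boxes, starting 237, 176 and 45 bases ahead of the start, and 1 sterol element core 136 bases ahead. In Lss a single CCAAT box lay 62 bases ahead, and in Insig1 1 lay 216 bases ahead. The sterol element core of Insig1 began 9 bases ahead of the RefSeq start, in the stretch left out above. Over the 250 bases, 6 of the 6 genes held a CCAAT box in at least 1 window, against 33.8% of 32851 mouse windows of that length. GGGCGG, the letters of an Sp1 site, was also in 6 of the 6 (32.7% of all windows), CACNCCAC in 2 of the 6 (5.29%) and CACGTG in 1 of the 6 (6.02%). Srebf1 had 3 windows, so its chance of a match was higher than that of a gene with 1. Among the 17 enzyme genes of the pathway with a window, 16 held CCAAT, 15 GGGCGG, 2 CACNCCAC and 3 CACGTG. Some of these genes also had more than 1 window. Counted by window, as the shares over all windows are, these motifs were in 16, 16, 2 and 3 of 20. These are matches of letters and not measured sites. In the windows of the 6 genes no match of one motif overlapped a match of another.

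In mdx MuSCs the 8 genes went both ways relative to control, with log2 fold changes from -0.72 for Insig1 to 0.50 for Srebf1. None was called, where a call needed an adjusted p of at most 0.05 and a log2 fold change of at least 1 in size in limma, and 14.2% of all 15915 tested genes were called in this comparison, 6.89% higher and 7.34% lower. At an unadjusted p under 0.05, 2 of the 8 differed, near the 31.0% of all genes. Their median log2 fold change was 0.00, the same as the 0.00 over all tested genes. In Sirt6mKO/mdx MuSCs, 3 of the 8 (Srebf1, Hmgcs1 and Lss) fell relative to mdx and none rose, against 8.17% of all genes called, 2.54% lower and 5.62% higher, and 6 of the 8 had an unadjusted p under 0.05 (25.2% of all genes). Here the median of the 8 was -0.85, beside 0.02 over all tested genes. Relative to control, 2 of the 8 (Sqle and Lss) fell, against 7.87% of all genes called, 2.68% lower and 5.19% higher. An unadjusted p under 0.05 was found for 3 of the 8 (24.1% of all genes), and the median was -0.61, beside 0.01. Without any overlap between libraries, 2 of the 8 were lower and 2 higher in mdx than in control, where 28.3% and 28.7% of all genes were. In Sirt6mKO/mdx against mdx 5 were lower and 2 higher (27.2% and 28.8% of all genes), and against control 6 were lower and 0 higher (25.3% and 26.3%). The comparisons share libraries, and each is given for itself.

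**Figure D1:**
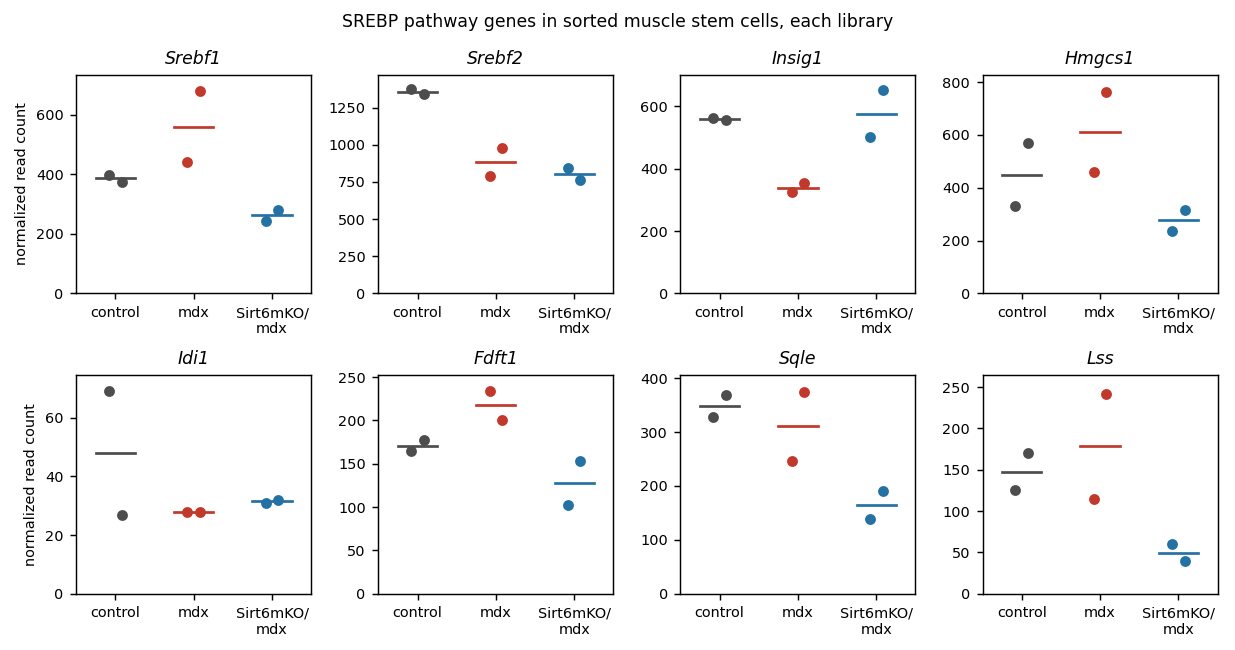
Normalized read count (vertical axes, linear from 0) of the 8 genes in each of the 6 libraries; points are libraries and bars are means of 2 libraries. Both Sirt6mKO/mdx points lie below both mdx points for Srebf1, Hmgcs1, Fdft1, Sqle and Lss, and Insig1 shows the lowest points in mdx.

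Srebf1 (ENSMUSG00000020538, GRCm38 chr11:60199089-60222581, minus strand) encodes both SREBP-1a and SREBP-1c, which a gene-level count does not separate. Control libraries had 399 and 376 normalized reads, mdx libraries 442 and 679, and those labelled Sirt6mKO/mdx 245 and 279. Both mdx libraries lay above and both Sirt6mKO/mdx libraries below the control pair, with no overlap. Against mdx, Srebf1 fell in Sirt6mKO/mdx by 1.06 on the log2 scale (SE 0.27), 2.09-fold lower (adjusted p = 0.0226). Neither comparison with control was called: the log2 fold change was 0.50 in mdx (adjusted p = 0.221) and -0.57 in Sirt6mKO/mdx (adjusted p = 0.209). Leaving out mdx replicate 2, the highest library, gave -0.76 and an adjusted p of 0.222 for Sirt6mKO/mdx against mdx, and the call was also lost without Sirt6mKO/mdx replicate 1 (-0.97, adjusted p = 0.224) or 2 (-1.16, adjusted p = 0.125).

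Srebf2 (ENSMUSG00000022463, chr15:82147266-82205376, plus strand) encodes the main regulator of cholesterol synthesis. It had 1372 and 1344 normalized reads for control, 790 and 976 for mdx and 847 and 763 for Sirt6mKO/mdx. Both dystrophic groups lay below control and overlapped each other. No difference was called: mdx against control gave a log2 fold change of -0.63 (95% interval -1.14 to -0.11, adjusted p = 0.0895), Sirt6mKO/mdx against control -0.76 (adjusted p = 0.0652). Between Sirt6mKO/mdx and mdx the value was -0.13, with a 95% interval from -0.64 to 0.39. The 2 factor genes thus had different orders of groups, Srebf1 being highest in mdx and Srebf2 in control, although the difference between their patterns was not tested.

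Insig1 (ENSMUSG00000045294, chr5:28071363-28078662, plus strand), which retains the SCAP complex, had yet another order. Control libraries stood at 563 and 557, mdx libraries at 325 and 354, and Sirt6mKO/mdx libraries at 500 and 652. Both mdx libraries were below the other 4, which overlapped. With a log2 fold change of -0.72 in mdx against control (95% interval -1.24 to -0.20, adjusted p = 0.0565) and 0.75 in Sirt6mKO/mdx against mdx (0.23 to 1.27, adjusted p = 0.0693), it passed neither criterion. With all libraries scaled to equal totals, the value against mdx was 0.12 (adjusted p = 0.801). The 22 immediate early and dissociation response genes were also lowest in mdx, with summed values of 178159 and 200484 for control, 24671 and 27567 for mdx, and 139657 and 133421 for Sirt6mKO/mdx. Of that list 21 fell in mdx, where 7.34% of all genes did, and 21 rose in Sirt6mKO/mdx relative to mdx, where 5.62% did. Their part in the values of Insig1 was not tested.

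Hmgcs1 (ENSMUSG00000093930, chr13:119690462-119708086, plus strand), the cytosolic HMG-CoA synthase, had 331 and 568 normalized reads in the control pair, 461 and 763 in the mdx pair, and 238 and 315 in the Sirt6mKO/mdx pair. The replicates of control and mdx were far apart and overlapped, while both Sirt6mKO/mdx values were below the other 4. Hmgcs1 fell 2.16-fold relative to mdx, by 1.11 on the log2 scale (SE 0.31, adjusted p = 0.0394). This call was lost when any 1 of the 4 libraries was left out (adjusted p 0.0612 to 0.336) and with a pseudocount of 0.1 (adjusted p = 0.0586). Against control the log2 fold change was -0.66 (adjusted p = 0.213), and for mdx against control it was 0.45 (adjusted p = 0.357).

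Idi1 (ENSMUSG00000058258, chr13:8885501-8892451, plus strand), the isopentenyl diphosphate isomerase, was the least read member, resting on about 17 to 46 reads per library. Its normalized values were 69 and 27 for control, 28 and 28 for mdx and 31 and 32 for Sirt6mKO/mdx. One control library stood apart and the other 5 lay close together. All 3 intervals were wide, and for Sirt6mKO/mdx against mdx the log2 fold change was 0.16 with a 95% interval from -1.02 to 1.35, and no difference was called.

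Fdft1 (ENSMUSG00000021273, chr14:63145153-63177793, minus strand), the squalene synthase at the entry to the sterol branch, had 165 and 177 normalized reads in the control pair, 234 and 201 in the mdx pair, and 102 and 153 in the Sirt6mKO/mdx pair. The 3 groups did not overlap, with mdx highest and Sirt6mKO/mdx lowest. The size of the differences stayed below the criteria, with log2 fold changes of 0.34 in mdx against control (adjusted p = 0.476), -0.79 in Sirt6mKO/mdx against mdx (95% interval -1.43 to -0.15, adjusted p = 0.115) and -0.45 against control (adjusted p = 0.393). Of its exonic bases, 18.3% overlap Ctsb on the opposite strand. Reads on several genes were left out of the counts, and the use of strand in counting was not stated. Whether Fdft1 reads from this stretch were counted or dropped is therefore not known.

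Sqle (ENSMUSG00000022351, chr15:59315077-59331192, plus strand), squalene epoxidase, a control point of the pathway, had 328 and 369 normalized reads for control, 247 and 375 for mdx and 139 and 190 for Sirt6mKO/mdx. Control and mdx overlapped, and Sirt6mKO/mdx lay below both. Sqle fell by 1.09 on the log2 scale relative to control (SE 0.29, 2.13-fold lower, adjusted p = 0.0287). Relative to mdx the log2 fold change was -0.90 (95% interval -1.52 to -0.29, adjusted p = 0.0639) and was not called. Without any 1 of the 4 libraries the call against control was lost (adjusted p 0.0597 to 0.230).

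Lss (ENSMUSG00000033105, chr10:76531588-76557138, plus strand), lanosterol synthase, changed most among the 8 in both comparisons of Sirt6mKO/mdx. It had 125 and 170 normalized reads in the control pair, 115 and 242 in the mdx pair, and 60 and 39 in the Sirt6mKO/mdx pair. The mdx pair enclosed the control pair, and both Sirt6mKO/mdx libraries were lower than either. Relative to mdx it fell by 1.77 on the log2 scale (SE 0.40, 3.40-fold lower, adjusted p = 0.0131), and relative to control by 1.57 (2.97-fold lower, adjusted p = 0.0242). The fall relative to mdx was lost without mdx replicate 2 (log2 fold change -1.23, adjusted p = 0.201), without Sirt6mKO/mdx replicate 1 (-2.07, adjusted p = 0.0871) and without Sirt6mKO/mdx replicate 2 (-1.46, adjusted p = 0.160). Relative to control it was lost without control replicate 2 (-1.35, adjusted p = 0.164), Sirt6mKO/mdx replicate 1 (-1.88, adjusted p = 0.0848) or Sirt6mKO/mdx replicate 2 (-1.27).

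Between genes, levels can be compared only per length, here as normalized reads per kilobase of merged exons. In control the order was Srebf2 (189 per kilobase), Insig1 (181), Hmgcs1 (97.8), Srebf1 (68.8), Sqle (62.8), Fdft1 (40.5), Idi1 (13.7) and Lss (13.7). In mdx, Hmgcs1 (133) stood first, followed by Srebf2 (123), Insig1 (110), Srebf1 (99.5), Sqle (56.1), Fdft1 (51.5), Lss (16.5) and Idi1 (7.99). In the libraries labelled Sirt6mKO/mdx, Insig1 (186) was ahead of Srebf2 (112), Hmgcs1 (60.2), Srebf1 (46.5), Fdft1 (30.2), Sqle (29.7), Idi1 (8.99) and Lss (4.59). Neighbours in these orders often overlapped between libraries: in mdx, Hmgcs1 ranged from 100 to 166 per kilobase and Srebf2 from 110 to 136. The low level of Lss per kilobase rests on a merged exon length of 10787 bases over all its annotated transcripts.

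Seen along the whole pathway, the same direction recurred in the libraries labelled Sirt6mKO/mdx. Of 22 enzymes along the whole route to cholesterol, 6 fell relative to mdx and none rose, where 2.54% of all tested genes fell and 5.62% rose. Relative to control 6 fell and none rose (2.68% and 5.19% of all genes), and in mdx against control 1 fell and none rose (7.34% and 6.89%). Log2 fold changes below 0 were found for 19 of the 22 against mdx, 20 of the 22 against control and 10 of the 22 for mdx against control. Their median was -0.76, -0.78 and 0.08 in these comparisons. The median for mdx against control went from -0.37 (without mdx replicate 2) to 0.19 (without mdx replicate 1), so its sign was not stable. With any 1 library left out, the median against mdx lay between -0.99 and -0.68, and 1 or 2 of the 22 were called. Against control it lay between -0.93 and -0.62, with 1 to 7 called.

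**Figure D2:**
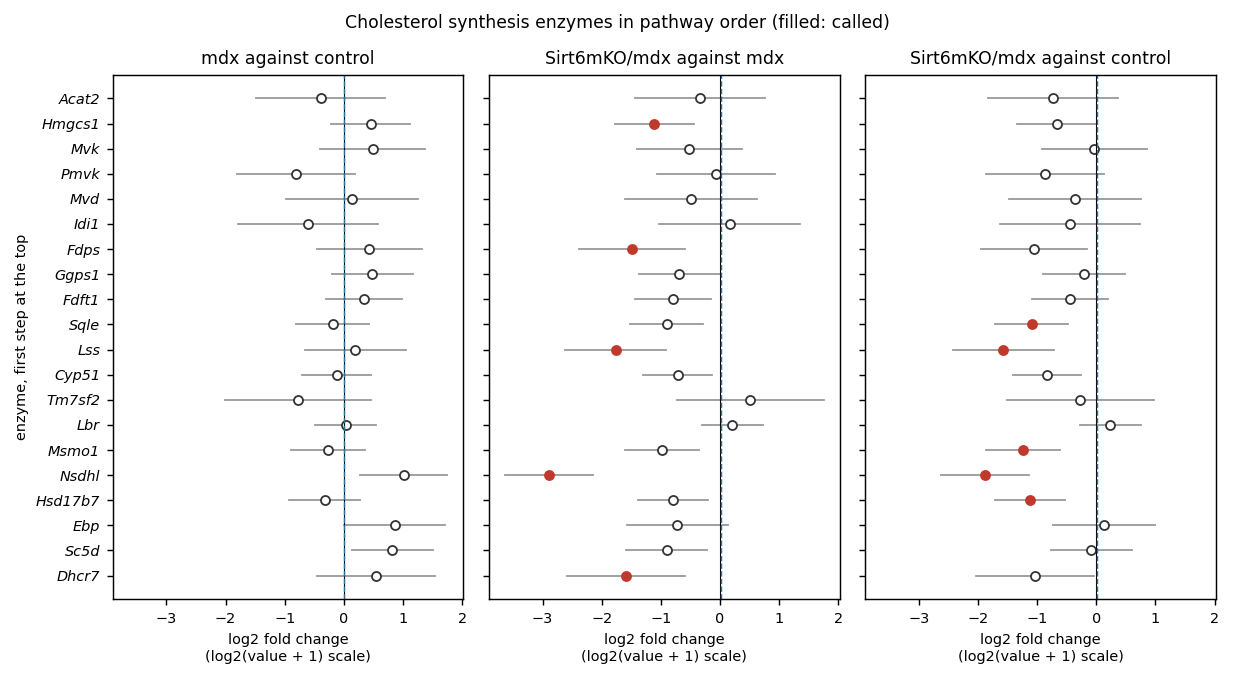
Log2 fold changes on the log2(value + 1) scale (horizontal axes) with 95% intervals for 20 of the cholesterol synthesis enzymes, listed from the first step at the top. Filled points are called, all of them lower; the dashed line is the median of all tested genes, and 17 of the 20 points lie below 0 in Sirt6mKO/mdx against mdx.

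The X-linked Nsdhl, a dehydrogenase that acts in removal of the C-4 methyl groups, had 169 and 130 normalized reads in the control pair, 252 and 355 in the mdx pair, and 31 and 50 in the Sirt6mKO/mdx pair. It was the enzyme that fell furthest relative to mdx, 7.43-fold lower (adjusted p = 1.17e-04), in groups that both held Y-linked RNA, and it was called lower than control as well (log2 fold change -1.89, adjusted p = 0.00364), a call lost without Sirt6mKO/mdx replicate 1 (-1.55, adjusted p = 0.0746). Without any 1 of the 4 libraries Nsdhl was still called in Sirt6mKO/mdx against mdx.

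Fdps, which makes farnesyl diphosphate, fell relative to mdx (log2 fold change -1.49, adjusted p = 0.0391), as did Dhcr7, a reductase of the late pathway (-1.58, adjusted p = 0.0471). Both calls were lost with a pseudocount of 0.1 and whenever 1 library was left out. Msmo1, listed under its older symbol Sc4mol, and Hsd17b7, which both act on the C-4 methyl groups, fell relative to control (-1.24, adjusted p = 0.0170 and -1.12, adjusted p = 0.0220). At the other end, Lbr and Tm7sf2, which both reduce the C-14 double bond, had log2 fold changes of 0.21 and 0.51 against mdx.

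Genes that hold, cleave or degrade the SREBP machinery did not share one direction. Of 12 tested, 1 was called higher in each comparison and none lower, a share near that of all tested genes called higher (6.89%, 5.62% and 5.19%). Erlin2 rose in mdx relative to control (log2 fold change 1.21, adjusted p = 0.0269), Insig2 in Sirt6mKO/mdx relative to mdx (1.09, adjusted p = 0.0160) and Rnf139, an INSIG-bound ubiquitin ligase, in Sirt6mKO/mdx relative to control (1.21, adjusted p = 0.00900). With equal totals the calls of Insig2 (0.46, adjusted p = 0.248) and Rnf139 (0.61, adjusted p = 0.146) were lost. Insig2, the second retention factor, had 843 and 621 in the control pair, 529 and 423 in the mdx pair, and 1065 and 949 in the Sirt6mKO/mdx pair. Like Insig1 it was lowest in mdx, and its Sirt6mKO/mdx libraries stood above all others. Scap, the escort, had log2 fold changes of -0.39, -0.01 and -0.40 in mdx against control, Sirt6mKO/mdx against mdx and Sirt6mKO/mdx against control, none called. The list medians were -0.04, -0.42 and -0.09, and log2 fold changes were below 0 for 6, 9 and 6 of the 12. In Sirt6mKO/mdx against mdx, 8 were lower and 3 higher without overlap between libraries (27.2% and 28.8% of all genes).

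Sterol uptake and transport genes, 14 in all, were called lower in 3, 1 and 3 cases and higher in 0, 1 and 0 in the same order of comparisons (7.34%, 2.54% and 2.68% of all tested genes were called lower and 6.89%, 5.62% and 5.19% higher), with medians of -0.10, -0.15 and -0.14. Stard4, a cytosolic sterol carrier, fell relative to mdx (log2 fold change -1.37, adjusted p = 0.0222) and control (-1.31, adjusted p = 0.0272). Mylip, a ubiquitin ligase controlled by LXR, fell in mdx (-1.11, adjusted p = 0.0142) and rose in Sirt6mKO/mdx relative to mdx (1.14, adjusted p = 0.0210). Lrp1, a large endocytic receptor, fell in mdx (-1.76) and was lower than control in Sirt6mKO/mdx as well (-1.12). Gramd1a, which moves sterol from the plasma membrane, fell in mdx (-1.01, adjusted p = 0.00976).

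Fatty acid synthesis genes, the main targets of SREBP-1c, had medians of 0.06, -0.76 and -0.63 over 15 genes. Relative to mdx, 3 fell in Sirt6mKO/mdx and 1 rose (2.54% and 5.62% of all genes), and relative to control 6 fell and none rose (2.68% and 5.19%). The desaturase gene Scd2 had 743 and 1691 in the control pair, 1588 and 3065 in the mdx pair, and 325 and 385 in the Sirt6mKO/mdx pair, and fell 6.22-fold relative to mdx (adjusted p = 4.02e-04) and 3.16-fold relative to control (adjusted p = 0.0113). Scd1 fell relative to mdx (log2 fold change -1.78, adjusted p = 0.00628), and so did the elongase Elovl6 (-2.05, adjusted p = 0.00443), which was also lower than control (-1.60, adjusted p = 0.0188). Other members of the list followed another order. Fasn, fatty acid synthase, had 2449 and 2410 for control, 761 and 1280 for mdx and 901 and 972 for Sirt6mKO/mdx, and fell in mdx (-1.30, adjusted p = 0.00520) with no further difference detected in Sirt6mKO/mdx (-0.08 against mdx). Gpam, the first acyltransferase of triglyceride synthesis, fell in mdx (-1.99) and was lower in Sirt6mKO/mdx than in control (-2.31). Acacb, the mitochondrial acetyl-CoA carboxylase, fell in mdx (-1.10) and rose in Sirt6mKO/mdx relative to mdx (1.31). Acly and Acaca, which make cytosolic acetyl-CoA and malonyl-CoA, fell in Sirt6mKO/mdx relative to control (-1.26 and -1.27). Scd1 and Fads1 rose in mdx (1.16 and 1.14), calls that held in 7 of 16 settings each.

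Sterol efflux and esterification genes include many controlled by LXR, the receptor for oxysterols. Of 8 tested among 10, 1 rose in mdx and 1 in Sirt6mKO/mdx relative to control, both times the exporter Abcg1 (6.89% and 5.19% of all genes rose), and none was called in limma between Sirt6mKO/mdx and mdx (2 of the 8 at an unadjusted p under 0.05). Abcg1 had 6 and 9 normalized reads in the control pair, 33 and 34 in the mdx pair, and 34 and 37 in the Sirt6mKO/mdx pair, a rise of 2.04 on the log2 scale in mdx (adjusted p = 0.0331) from few reads. Abca1, the second exporter, had 403 and 314, 716 and 699, and 596 and 719 in these groups, and its log2 fold change of 0.99 in mdx (adjusted p = 0.0130) fell just short of a call. The list medians were 0.23, 0.14 and 0.34. Among the 4 genes for the DNA-binding partners of SREBPs, Nfya, a subunit of NF-Y, fell in mdx (-1.18, adjusted p = 0.00769) and was lower in Sirt6mKO/mdx than in control (-1.20, adjusted p = 0.0126), with -0.02 between them. The list medians were -0.47, -0.20 and -0.74.

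Most of these calls rested on all libraries. Of the called genes of the lists other than the 8, 2 of 12 kept the call in mdx against control with any 1 library left out (Lrp1 and Gpam), 2 of 11 in Sirt6mKO/mdx against mdx (Nsdhl and Scd2) and 2 of 16 in Sirt6mKO/mdx against control (Gpam among them). With the 8 genes included, the lists held 78 tested genes of 80, of which 4 rose and 8 fell in mdx against control (6.89% and 7.34% of all genes), together near the 14.2% of all genes called. In Sirt6mKO/mdx 3 rose and 11 fell against mdx (5.62% and 2.54% of all genes), and 2 rose and 16 fell against control (5.19% and 2.68%). With equal totals 0 rose and 37 fell against mdx, and 0 rose and 36 fell against control, where 3411 and 3147 of all 15915 genes were called in either direction. The higher calls of Insig2, Mylip (0.51), Acacb (0.68), Rnf139 and, against control, Abcg1 (1.55) were all lost there.

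**Figure D3:**
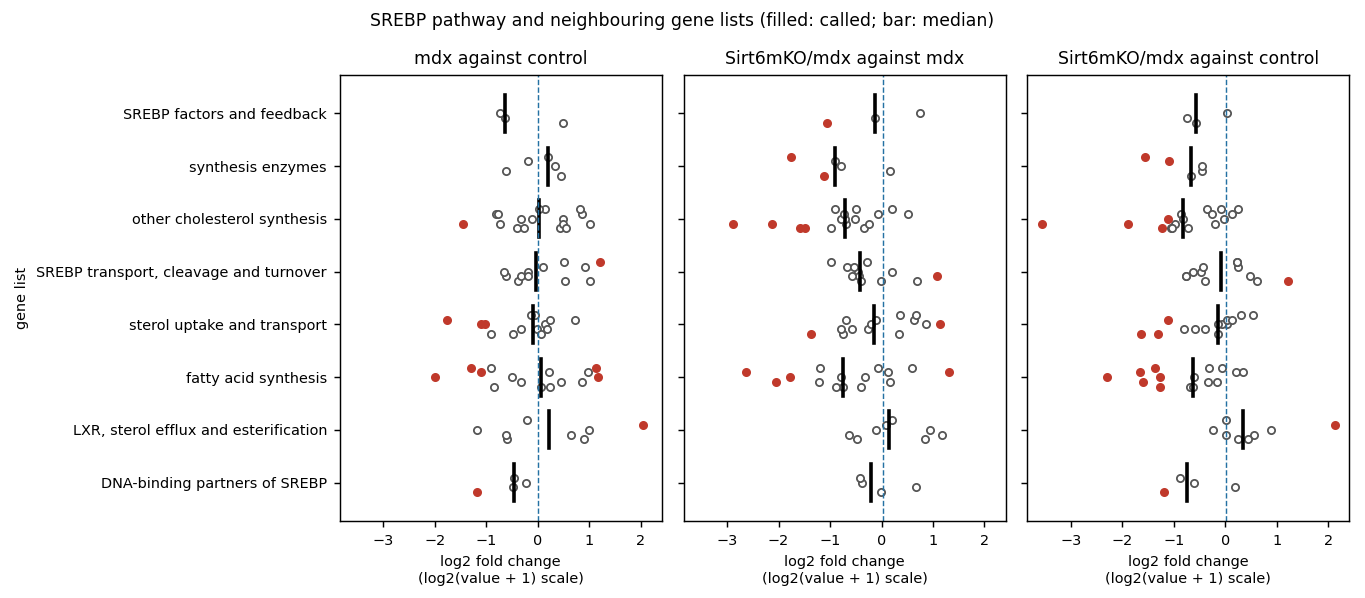
Log2 fold changes on the log2(value + 1) scale (horizontal axes) of all tested genes of 8 lists; each point is a gene, filled where called, black bars are list medians and the dashed line is the median of all tested genes. In Sirt6mKO/mdx against mdx the medians of the other synthesis enzymes (-0.71) and of the fatty acid list (-0.76) lie left of the line, and the LXR list (0.14) does not.

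The 5 synthesis enzymes were summarized as 1 profile over the libraries. The mean of their log2(value + 1), each centred on its own mean, was 0.25 and 0.29 for control, 0.09 and 0.52 for mdx and -0.66 and -0.49 for Sirt6mKO/mdx. By Pearson correlation with this mean over the 6 libraries, the 5 most similar of 9659 genes with a mean of at least 50 were Exosc2 (r = 0.996), Wdr6 (0.984), Ncapg2 (0.982), Stard4 (0.980) and Lpp (0.976). Stard4 was the only gene of the pathway lists among these 5, and Msmo1 (rank 18, r = 0.963) and Cyp51 (rank 32, r = 0.956) came next. With 6 libraries in 3 pairs that share group, depth and scaling, such values describe likeness of pattern only.

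**Figure D4:**
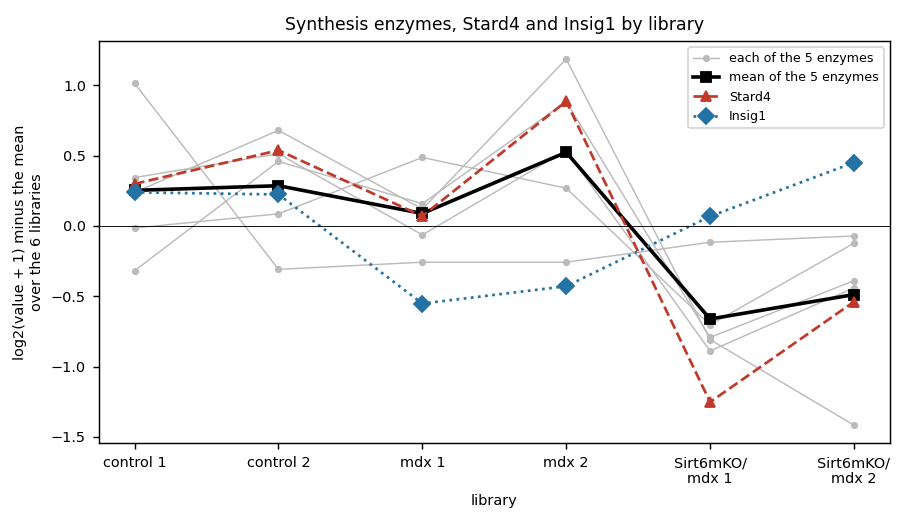
Log2(value + 1) minus each gene's mean over the 6 libraries (vertical axis) by library; grey lines are the 5 enzymes among the 8 genes, the black line their mean (-0.66 and -0.49 in Sirt6mKO/mdx), with Stard4 dashed and Insig1 dotted. Stard4 is lowest in Sirt6mKO/mdx with the enzymes, while Insig1 is lowest in mdx.

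Other features of the libraries varied along with these results. Proliferation genes (10) summed to 1025 and 857 for control, 1388 and 1993 for mdx and 771 and 1200 for Sirt6mKO/mdx. Of these, 6 rose in mdx (6.89% of all genes) and 3 fell in Sirt6mKO/mdx relative to mdx (2.54%). Myofibre markers (6 of 6) summed to 5940 and 6761, 4421 and 1332, and 9175 and 3982 in the same order, and endothelial markers (5 of 5) to 905 and 752, 407 and 401, and 608 and 622. Hepatocyte markers (4 of 5 found), of interest because liver is rich in sterol enzymes, summed to 7 to 42 in 5 libraries and to 578 in Sirt6mKO/mdx replicate 1. Leukocyte (81 to 194), adipocyte (13 to 58) and erythroid (7 to 91) markers were low throughout, and no marker found was at 0 in all 6 libraries. The part of these features and of fibro-adipogenic markers in the values of the sterol genes was not tested. Without Sirt6mKO/mdx replicate 1, the median of the 22 enzymes relative to mdx was -0.72.

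How far the 2 groups of mdx genotype stood apart also depended on the scaling of libraries. When all libraries were brought to equal totals in place of the size factors of the authors, the median of all tested genes shifted to -0.58 in both comparisons of Sirt6mKO/mdx. The median of the 22 enzymes minus that of all genes was then -0.79 against mdx and -0.80 against control. With the authors' scaling it was -0.78 and -0.79. A single factor per library shifts all genes nearly alike, so this difference could hardly change and is no test of the scaling. With equal totals, 5 of the 8 genes were called lower against mdx and 6 against control, where 18.4% and 16.9% of all genes were.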

How the data were processed

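MuSC total RNA was depleted of ribosomal RNA and sequenced on an Ion Torrent instrument. According to the methods and the submitters' processing notes, the authors used Reaper for trimming, STAR for alignment to GRCm38 (version 2.4.2a in the processing notes, another in the methods) and featureCounts 1.4.5-p1 for counting per gene, leaving out reads on several genes or places. The deposited values are counts that the authors divided by DESeq2 size factors and rounded, and were therefore treated as a score (a normalized read count), not as raw counts. Approximate reads were recovered from the size factors (0.537 to 1.53) that the whole-number patterns show, and do not cover counting error. As the values were not raw counts, limma 3.58.1 (R 4.3.3) with a mean-variance trend was run on log2(value + 1) for all 6 libraries in one fit. Of 22706 genes, 15915 with a mean of at least 5 were tested. A call needed a two-sided Benjamini-Hochberg adjusted p of at most 0.05 over all tested genes and an absolute log2 fold change of at least 1. Fold changes are on this scale and understate those of low genes. An exact permutation test of 2 against 2 libraries cannot go below p = 0.333 and was not used.

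The 8 genes, the lists and the tests were chosen with earlier results of these data known, so list counts and medians are descriptions. The 8 genes, Scap, Insig2, Fasn and Abca1 were named whether called or not, as were the other called genes of the pathway lists and the 5 genes most alike to the enzymes. A few genes of the lists count in the totals but are not reported here singly. Genes named outside this rule (Tm7sf2, Lbr, Cyp51, and genes of the library checks) were chosen after their values were seen or as checks. Exons came from GENCODE release 21 and promoters from RefSeq. The fit and the recovery of size factors were tested on simulated data. Alternatives varied the pseudocount, filter, scaling, prior variance, block, groups fitted and libraries.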

Additional observations from a re-analysis of the deposited data

How the results depend on the processing

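With 2 libraries a group, calls were fragile. Directions mostly held, but changes of filter, prior variance, block and groups fitted leave the log2 fold change of a gene as it is. Leaving out 1 library cannot turn the sign of a gene whose groups do not overlap. Held directions are therefore no test of stability in these settings. Relative to mdx, 3 of the 8 genes were called lower in Sirt6mKO/mdx, against 0 with no minimum mean, 0 with one prior variance for all genes, 5 with equal totals, and 0 to 2 when 1 library was left out. Relative to control the count was 2, against 0 with no minimum mean, 0 with one prior variance, 6 with equal totals, and 0 to 1 when 1 library was left out. With one prior variance no gene of the whole table was called in Sirt6mKO/mdx against mdx (0 of 15915). For mdx against control the count was 0 in every setting. Over all pathway lists, the genes called went from 14 to 37 against mdx and from 18 to 36 against control with equal totals, which shift the median of all genes by -0.58 and left 0 called higher. Of the 22 enzymes, 6 were called against mdx, with 3 at a pseudocount of 0.1, 1 with no minimum mean, 14 with equal totals, 0 with one prior variance and 1 to 2 when 1 library was left out. Against control 6 were called, with 1 with no minimum mean, 13 with equal totals, 0 with one prior variance and 1 to 7 when 1 library was left out. In mdx against control 1 was called, with 0 with no minimum mean or one prior variance, 2 with a minimum mean of 50 or a robust prior variance, and 0 to 1 when 1 library was left out. A left-out library leaves 1 in its group, which is assumed to vary like the others.

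Signs turned only where values were near 0 or a single library set them. With equal totals Idi1 went to -0.44 against mdx and Insig1 to -0.58 against control (-0.000276 with equal upper quartiles). When 1 library was left out, mdx against control ranged from -1.27 to 0.051 for Idi1, from -0.49 to 0.11 for Sqle and from -0.34 to 0.73 for Lss. Srebf2 ranged from -0.28 to 0.025 against mdx, and Insig1 from -0.16 to 0.22 and Idi1 from -1.11 to 0.21 against control. The cause was not tested. Idi1 was not tested with a minimum mean of 50.

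Replicate numbers are shared between groups, but nothing ties same-numbered libraries to one animal or batch, and the deviations of replicates 1 correlated at -0.13 (control and mdx), 0.12 (control and Sirt6mKO/mdx) and 0.01 (mdx and Sirt6mKO/mdx). A replicate block called 0, 3 and 2 of the 8 genes in the 3 comparisons, and 2415, 1510 and 1404 of all genes in place of 2265, 1300 and 1253. A crossed pairing of control and mdx, added after the data were seen, called 0 of the 8 genes, 2 of the 22 enzymes and 2309 of all genes.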
